A study of Mus musculus with 17 samples.

Results

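Among 9 mouse mammary tumours deleted for Rb and p53, 3 were chosen by their own Yap1 reading, which lay above a limit set between 10.75 and 12.15 on the log2 scale of the arrays. These 3 Yap1-high tumours were set against the other 6. The whole series holds 17 samples, each measured on 1 Affymetrix Mouse Gene 1.0 ST array, all on a mixed strain background. The Yap1-high tumours were MCRP-1175, from a nulliparous MMTV-Cre mouse, TMCRP-1123, an MMTV-Cre transplant, and ACRP-1, an Ad-CMVcre transplant. The other tumours were MCRP-1241 from a parous MMTV-Cre mouse, the MMTV-Cre transplants TMCRP-1, TMCRP-3, TMCRP-985 and TMCPR-1014, and the Ad-CMVcre transplant ACRP-2. All of them carry the Rb and p53 deletions, which Cre recombinase made either under the mouse mammary tumour virus promoter, active in mammary epithelium among other tissues, or from an adenovirus with the CMV promoter. For reference stand 3 MMTV-Cre tumours labelled as p53 deleted and 5 samples of normal mammary tissue from Rbp53 mice. The title of 1 p53 tumour, MCRP-1280, names the Rbp53 model, while its other labels name p53. The labels give neither ages nor the hosts of the transplants, and describe the tumours as independent.

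YAP, the product of Yap1, is a coactivator that enters the nucleus when the kinases of the Hippo pathway (MST and LATS) are inactive and there binds the TEAD transcription factors. Genes such as Ccn1, Ccn2, Ankrd1 and Amotl2 are well-known YAP targets. Birc2 and Birc3, which lie next to Yap1 in the mouse genome, encode the inhibitor of apoptosis proteins cIAP1 and cIAP2, ubiquitin ligases of the TNF receptor and NF-kB pathways. The segment that holds Yap1 and Birc2 is known to be amplified in some mouse and human tumours. DNA copy number was not measured here.

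The deposited values are log2 levels, so a difference of 1 is a doubling. Differences are the mean of the 3 Yap1-high tumours minus the mean of the other 6, with the standard error (SE) from limma. Over 35556 probe sets, pairs of arrays from the 9 tumours had correlations of 0.959 to 0.985. Rb1, the deleted gene that could be read, did not separate the groups: it read 9.35 in MCRP-1175, 9.92 in TMCRP-1123 and 9.37 in ACRP-1, and 9.29 to 9.84 in the other tumours. Normal tissue read 10.93 to 11.504 for Rb1. Trp53 was not analysed here. Of the epithelial markers, the keratin Krt8 read 10.95 to 12.28 in the Yap1-high tumours and Epcam 7.06 to 9.75, with 11.90 to 13.53 and 7.13 to 11.06 in the others. The mesenchymal filament gene Vim read 13.93 to 14.04 and 13.94 to 14.13.

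Yap1 chose the groups, so its levels are a description. It read 13.51 in MCRP-1175, 13.46 in TMCRP-1123 and 12.15 in ACRP-1. The other 6 tumours ran from 10.11 to 10.75 with a median of 10.27. The lowest tumour above the limit and the highest below it were thus ACRP-1 and ACRP-2, at 12.15 and 10.75, both from the Ad-CMVcre model. The p53 tumours read 10.62, 8.08 and 10.43, and normal tissue 10.02 to 10.44. All 3 Yap1-high tumours lay above every sample of these 2 groups.

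The neighbours of Yap1 are also described without a test, because a change that spans the segment would be the one that chose the tumours. Birc2 read 12.47, 12.43 and 10.51 in MCRP-1175, TMCRP-1123 and ACRP-1, against 8.37 to 8.99 (median 8.50) in the other tumours. A second Birc2 probe set gave a difference of 2.63, where the one used gave 3.24. Birc3 read 12.31, 12.31 and 11.04, against 9.58 to 10.001 (median 9.73). As with Yap1, ACRP-1 was the lowest of the 3 for both genes, and the groups did not overlap. Tmem123, which encodes a cell surface protein linked to cell death, read 13.75, 13.65 and 13.18, against 11.64 to 12.28 (median 12.02). Cep126, which encodes a centrosome protein, read 11.24, 11.18 and 10.11, against 7.02 to 7.90 (median 7.35). Cfap300, a gene of cilia assembly that was named after its values were seen, read 12.98, 13.24 and 11.91, against 8.23 to 9.65 (median 8.77). It had the largest difference among the 59 genes of the region, 3.77.

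**Figure D1:**
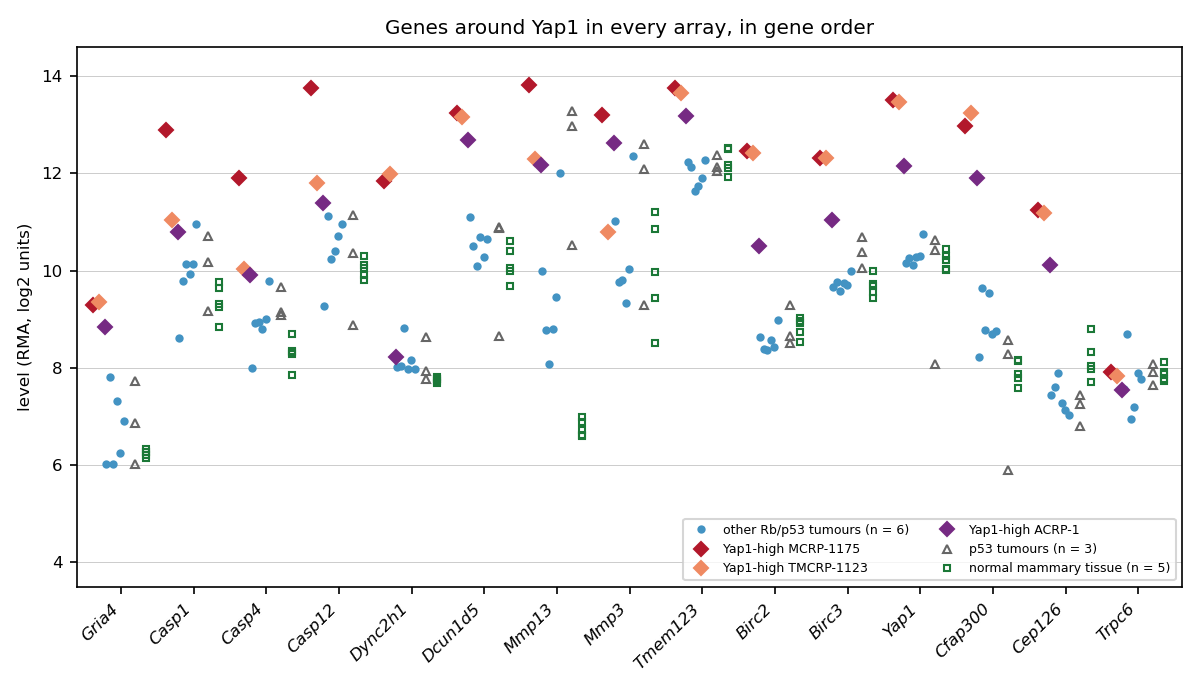
Levels of 15 genes around Yap1 in all 17 arrays (vertical axis, RMA log2 units; genes in chromosome order). Diamonds are the Yap1-high tumours, dots the other Rb/p53 tumours, triangles p53 tumours and squares normal tissue; from Tmem123 to Cep126 all 3 diamonds lie above every other sample, while Dync2h1 is high in 2 of them and Trpc6 in none.

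The region was taken as the 30 measured genes after Yap1 in the gene order of chromosome 9 and the 28 before it, where the measured genes of the chromosome end. Among its 59 genes the groups did not overlap in 13, all higher in Yap1-high tumours (22%), and in 0 lower. The 13 include Yap1 itself, which could not overlap because its readings made the groups. Over all 19938 genes these shares were 1.36% higher and 1.24% lower. The stretch from Tmem123 to Cep126 holds 6 measured genes, Yap1 among them, all without overlap, with differences of 1.54 to 3.77. The 28 genes before Yap1 had a median difference of 1.25, and 10 did not overlap. The 28 genes beyond Cep126 had a median of -0.06, and 0 did not overlap. Trpc6, a calcium channel gene 4 places after Yap1, read 7.92, 7.83 and 7.55 against 6.94 to 8.69. The progesterone receptor gene Pgr, the next gene, read 7.23, 6.94 and 6.53 against 6.43 to 9.30. Arhgap42, the gene after Pgr, read 11.29, 12.15 and 11.42 against 10.51 to 11.36, with MCRP-1175 inside the range of the others.

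The 3 tumours differed in how far the high levels reached. In MCRP-1175, 18 genes lay at least 1 unit above the highest other tumour, from Aasdhppt, 24 places before Yap1, to Cep126. In TMCRP-1123 there were 9 such genes and in ACRP-1 there were 7, in both from Gria4, 21 places before Yap1, to Cep126. The 3 thus shared their last gene and not their first. Aasdhppt, which encodes a phosphopantetheinyl transferase, read 12.67 in MCRP-1175, 10.53 in TMCRP-1123 and 10.0005 in ACRP-1, against 9.69 to 9.95. Its neighbours Kbtbd3 and Msantd4 read 8.58 and 12.65 in MCRP-1175. In TMCRP-1123 and ACRP-1 they read 6.23 and 6.001 for Kbtbd3, within the range of the others (5.85 to 6.35), and 10.05 and 9.67 for Msantd4 (others 9.32 to 9.74).

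**Figure D2:**
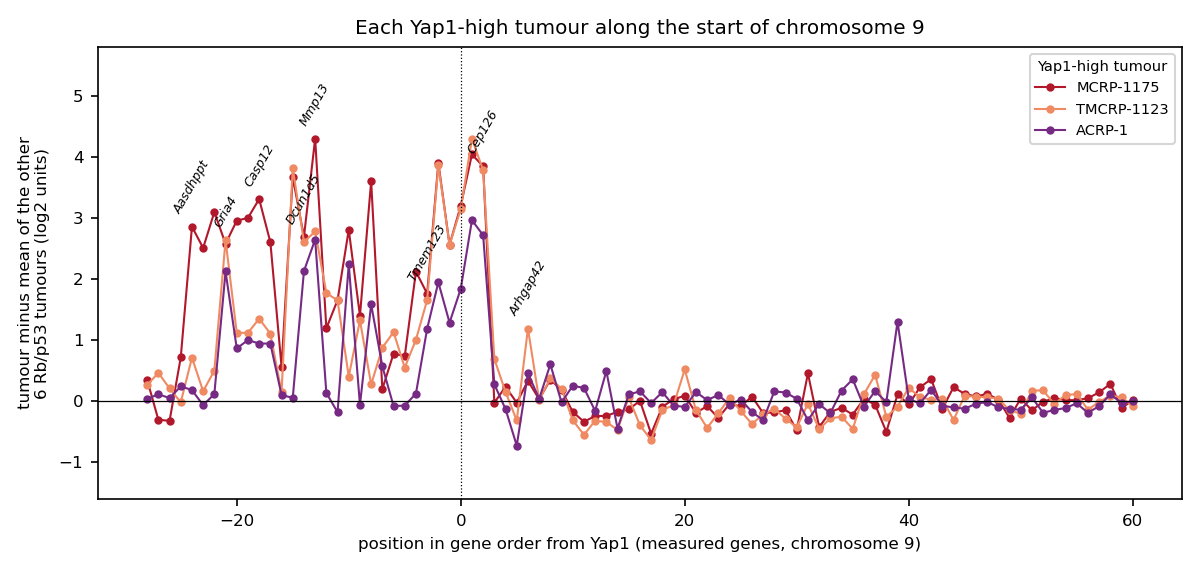
Level of each Yap1-high tumour minus the mean of the other 6 Rb/p53 tumours (vertical axis, log2 units) by position in gene order from Yap1 (horizontal axis, dotted line at Yap1). All 3 lines drop right after Cep126. Later values of at least 1 occur only in TMCRP-1123 at Arhgap42 (1.19) and in ACRP-1 beyond the region at Naalad2 (1.30), beside smaller rises such as Maml2 in ACRP-1 (0.61). Before Yap1, MCRP-1175 reaches high levels as far as Aasdhppt, while the 3 neighbours before Gria4 are near 0 in ACRP-1.

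The genes between Gria4 and Yap1 did not move as a block. Gria4, a glutamate receptor subunit, read 9.30, 9.36 and 8.85 in MCRP-1175, TMCRP-1123 and ACRP-1, against 6.02 to 7.81 (median 6.58). The inflammatory caspase gene Casp1 read 12.88, 11.05 and 10.79 against 8.60 to 10.95, so ACRP-1 lay within the range of the others. Casp4 read 11.91, 10.03 and 9.91 against 8.003 to 9.78, and Casp12 13.76, 11.80 and 11.40 against 9.27 to 11.13, both without overlap. For each of these caspases MCRP-1175 stood highest. Dync2h1, the motor of transport back down the cilium, read 11.84 and 11.98 in MCRP-1175 and TMCRP-1123 but 8.22 in ACRP-1, against 7.97 to 8.81. Dcun1d5, which helps attach NEDD8 to cullins, is its next measured neighbour and was high in all 3, at 13.25, 13.16 and 12.69 against 10.10 to 11.09 (median 10.58).

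Between Dcun1d5 and Tmem123 lies the cluster of matrix metalloproteinases, enzymes that cut extracellular matrix. Mmp13, a collagenase, read 13.82, 12.30 and 12.17, against 8.07 to 12.01 (median 9.13). Its highest other tumour was ACRP-2, and the p53 tumours reached 12.97 and 13.29, so high Mmp13 also occurred without high Yap1. Mmp3, a stromelysin, read 13.20, 10.79 and 12.63 against 9.33 to 12.37. Mmp10 read 12.19, 8.86 and 10.17 against 7.53 to 10.22, with TMCRP-1123 inside the range of the others for both and ACRP-1 for Mmp10. Mmp12, the macrophage elastase, read 10.38, 10.96 and 9.32 against 7.55 to 11.37. Mmp7 read 8.61, 7.50 and 6.62 against 6.40 to 6.61, so ACRP-1 lay just above the highest of the others.

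Across the genome the question was which other genes differed between the groups. The limma fit called 7 of 19938 genes at an adjusted p under 0.05 (0.0351%), all higher and all in the region: Yap1, Birc2, Birc3, Tmem123, Cfap300, Cep126 and Dcun1d5. Nothing is read from that count, since Yap1 made the groups. Outside the region 0 of 19879 genes passed (0%), and the smallest adjusted p was 0.104. At an unadjusted p under 0.05 there were 501 higher (2.52%) and 515 lower (2.59%). The groups did not overlap in 258 genes that were higher (1.3%) and 247 that were lower (1.24%). With a difference of at least 1 as well, 29 were higher (0.146%) and 14 lower (0.0704%). For scale, where nothing differs, an unadjusted p under 0.05 comes in a share of 0.05 of genes over both directions. The 9 tumours can be split into 3 and 6 in 84 ways. A gene unrelated to the split is therefore without overlap, in a given direction, in 1 of 84 cases (0.0119). The shares of genes without overlap in each direction were near that. The counts of calls, most of them genes of the region, moved when single tumours were left out, which also makes a group smaller. Without MCRP-1175 or without TMCRP-1123 the fit called 0 genes in all. Without ACRP-1 it called 13, of which 5 lay outside the region: Pcdh11x, Sh3rf2, Mogat2, Cdh3 and Plaat3. Without TMCRP-1 it called 4, among them Scin, without MCRP-1241 or without TMCRP-985 it called 3, and without TMCRP-3, TMCPR-1014 or ACRP-2 it called 2.

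None of the genes named next passed the threshold, and all are genes whose groups did not overlap. Bmp4, a ligand of the bone morphogenetic protein family, read 11.25, 11.06 and 10.16 in MCRP-1175, TMCRP-1123 and ACRP-1, and 8.01 to 9.31 (median 8.78) in the other tumours. Its difference was 2.10 (SE 0.33, limma adjusted p = 0.209), and within the models it was 1.94, 2.39 and 1.84 for MMTV-Cre without transplant, MMTV-Cre transplants and Ad-CMVcre. Adamts5, a protease that cuts aggrecan, read 10.70, 10.57 and 9.74 against 7.72 to 9.48 (median 8.38), a difference of 1.87 (SE 0.36, limma adjusted p = 0.507). Here the Ad-CMVcre pair differed by only 0.26, because ACRP-2 was the highest of the other tumours. Amotl2, an angiomotin family gene whose product binds YAP, read 10.45, 10.10 and 9.63 against 8.37 to 9.20 (median 8.88). Its difference of 1.23 (SE 0.22, limma adjusted p = 0.346) was 1.44, 1.27 and 1.01 within the same models. Each value within a model sets its only Yap1-high tumour against the other tumours of that model. All of them had to be positive, since genes without overlap were chosen.

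The gene with the smallest p outside the region was Pcdh11x, which encodes a protocadherin, a cell adhesion protein. It read 7.52, 7.12 and 6.65, against 5.81 to 6.06, with a difference of 1.17 (SE 0.16, limma adjusted p = 0.104). All 6 other tumours lay below 6.37, the lowest 25th percentile of any array, so their level is near the array's floor. Fads3, of the fatty acid desaturase family, read 11.10, 11.47 and 11.17 against 10.08 to 10.66, a difference of 0.93 (limma adjusted p = 0.183). Igf2bp1, an RNA-binding protein gene of fetal tissues, read 7.69, 8.56 and 7.74 against 6.89 to 7.04, while the p53 tumours read 7.59 to 9.19. Its difference was 1.03 with the probe set used and 0.69 with the mean of its probe sets. The further genes higher by this rule were Ube3b, Cpne3, Fgf14, Klhl30, Adam22 and Fyb2, with differences of 0.45 (Cpne3) to 1.45 (Adam22). Like Pcdh11x, Fgf14 and Fyb2 had means over the 9 tumours below the 25th percentile of all genes.

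Of the genes that were lower, Scin, which encodes an actin-severing protein, read 7.09, 6.68 and 7.59 against 8.07 to 9.32 (median 9.14). Its difference was -1.87 (SE 0.29, limma adjusted p = 0.209), and its levels in the Yap1-high tumours were near those of normal tissue (6.80 to 7.02). Jun, a subunit of the AP-1 transcription factor, read 10.92, 10.85 and 11 against 11.30 to 11.80, a difference of -0.64 (SE 0.13, limma adjusted p = 0.565). Spry2, an inhibitor of receptor tyrosine kinase signalling, read 8.24, 7.82 and 8.28 against 8.52 to 9.40. Bub1, a kinase of the mitotic checkpoint, read 9.98, 9.70 and 9.83 against 10.14 to 10.62. Shtn1, Btbd11, Zfp949, Lmo1, St6galnac4, Rif1, Niban2 and Stac2 complete the list, with differences of -0.55 (Niban2) to -1.29 (Stac2).

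**Figure D3:**
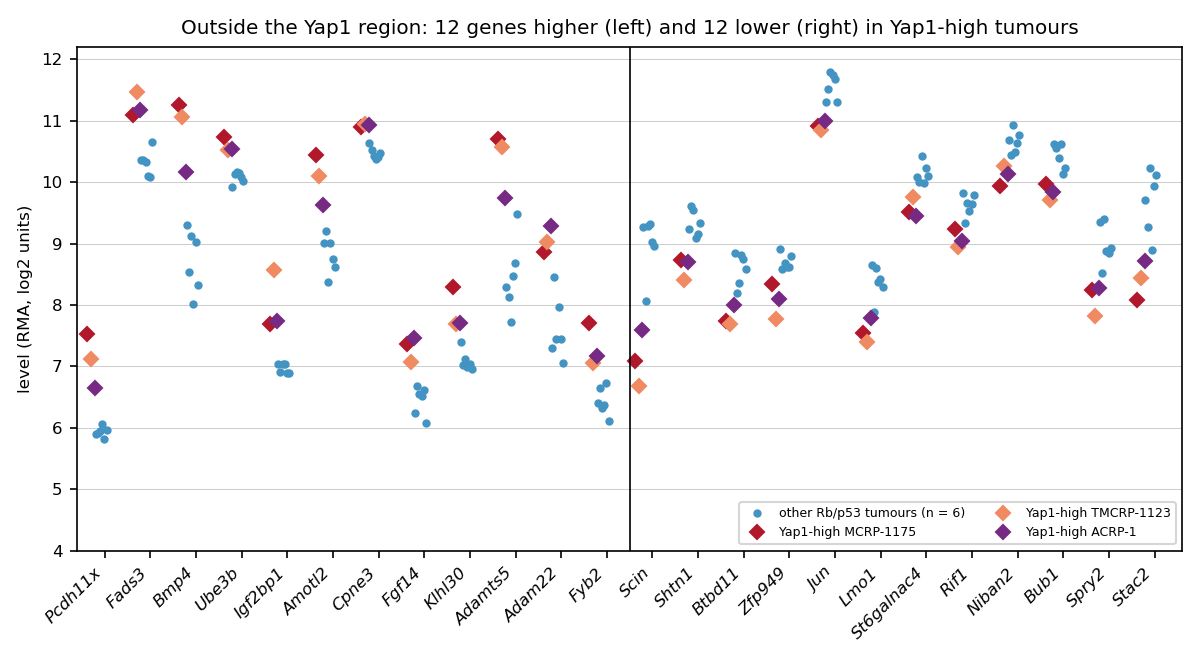
Levels (vertical axis, RMA log2 units) of the 12 higher and 12 lower genes of smallest p outside the Yap1 region in the 9 Rb/p53 tumours. Diamonds are the 3 Yap1-high tumours and dots the other 6; the groups do not overlap in any of the 24 genes, which is how they were chosen, and none passed the threshold.

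Other large differences without overlap were named after their values were seen. Edn1, the gene of the vasoconstrictor peptide endothelin, read 9.88, 10.59 and 9.14 against 7.07 to 8.67, a difference of 1.94. Heph, which encodes a copper-dependent iron oxidase, read 8.30, 9.38 and 9.57 against 6.53 to 8.12, a difference of 1.90. Epb41l4a differed by 1.80 and Rps6ka6, a ribosomal S6 kinase gene on the X chromosome, by 1.75. The mast cell protease gene Mcpt2 read 4.68 to 4.83 in the Yap1-high tumours. In the others it read 9.75 in TMCPR-1014 and 11.17 in ACRP-2 and 4.86 to 5.75 in the rest, and all values but these 2 lay below 6.37, near the array's floor.

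For the YAP target list, 22 genes drawn from known targets, 0 passed the threshold, as outside the region as a whole. Of the 22, 16 had a positive difference and 1, Amotl2, did not overlap (higher, against 1.3% of all genes outside the region). The median difference was 0.26, where the median over all genes was 0.00. At an unadjusted p under 0.05 there were 4, all higher, against 2.52% of all genes outside the region. Averaged over the list, MCRP-1175, TMCRP-1123 and ACRP-1 read 10.44, 10.43 and 10.35, and the other tumours 9.93 to 10.20. Ccn2, a secreted matricellular protein gene, read 12.71, 13.13 and 13.13 against 10.76 to 12.73, a difference of 1.24 (SE 0.37, limma adjusted p = 0.838). TMCPR-1014 thus lay within the Yap1-high range. Ankrd1 read 10.75, 11.62 and 11.02 against 8.21 to 11.37, with MCRP-1241 the highest of the others. Ccn1 read 12.44, 11.92 and 11.53 against 10.42 to 11.96. Ccdc80, a matrix protein gene, read 12.62, 12.98 and 12.14 against 10.59 to 12.55. Not all members ran this way: Foxf2 read 6.71, 6.62 and 8.72 against 6.998 to 9.38, and Nt5e 10.27, 9.87 and 11.28 against 10.01 to 12.41.

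**Figure D4:**
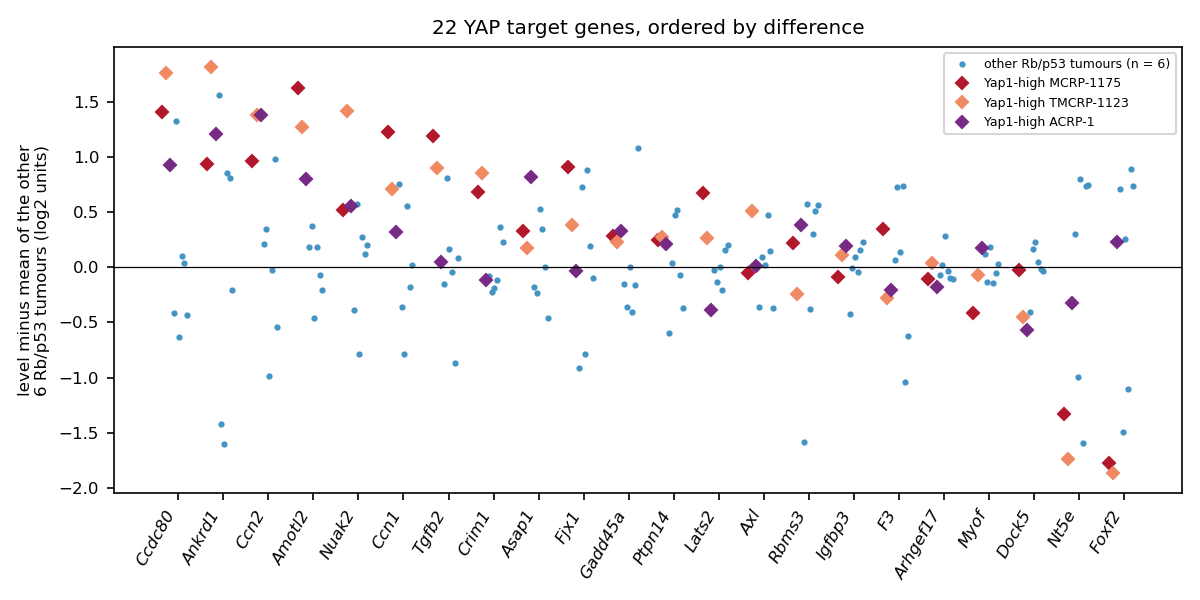
Level of each tumour minus the mean of the other 6 Rb/p53 tumours (vertical axis, log2 units) for the 22 YAP target genes, ordered by difference. Diamonds are the Yap1-high tumours and dots the others; Amotl2 is the gene where all 3 diamonds lie above all dots, and Nt5e and Foxf2 lie at the low end.

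TEAD factors are known to bind the letters CATTCC, or GGAATG on the other strand, so promoters of YAP targets are shown with these letters in capitals, as the 250 bases before the RefSeq start (GRCm38.p6, 5′ to 3′ along the gene). They were picked, after the values were seen, as well-known targets with a difference above 0.7 and a match.
Amotl2 (chr9:102717554-102717803, + strand): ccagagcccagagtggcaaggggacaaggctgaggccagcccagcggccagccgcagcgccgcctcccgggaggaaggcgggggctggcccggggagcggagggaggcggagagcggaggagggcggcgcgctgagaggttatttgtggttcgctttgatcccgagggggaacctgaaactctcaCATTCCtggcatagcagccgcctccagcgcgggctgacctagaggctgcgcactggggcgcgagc
Ankrd1 (chr19:36119845-36120094, - strand): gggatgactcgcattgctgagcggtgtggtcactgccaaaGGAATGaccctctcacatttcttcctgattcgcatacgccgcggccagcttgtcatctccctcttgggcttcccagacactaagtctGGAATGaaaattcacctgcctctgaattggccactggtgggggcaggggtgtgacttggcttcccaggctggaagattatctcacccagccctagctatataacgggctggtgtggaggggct
Ccn1 (chr3:145649986-145650235, - strand): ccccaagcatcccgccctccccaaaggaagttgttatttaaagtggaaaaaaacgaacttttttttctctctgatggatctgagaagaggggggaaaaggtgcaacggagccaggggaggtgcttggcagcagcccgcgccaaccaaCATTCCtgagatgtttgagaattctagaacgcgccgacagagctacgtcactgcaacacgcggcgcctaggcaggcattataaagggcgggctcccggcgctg
The match begins 65 bases before the start in Amotl2, 103 in Ccn1, and 210 and 123 in Ankrd1. Of the 22 listed genes 15 had a promoter in the table, and 7 of these (46.7%) held the letters on either strand in a window of 250 bases before to 50 after the start. Of all 27025 genes with a promoter there, 16.6% did. The other listed genes with a match were Crim1, Ptpn14, Lats2 and Axl, with smaller differences of 0.16 to 0.47. Tgfb2, with a difference of 0.71, had no match. A match is not evidence of binding.

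The Hippo pathway list had 22 measured members outside the region and a median of 0.09. Of these, 0 passed the threshold, as outside the region as a whole. As in the YAP target list, 16 differences were positive. At an unadjusted p under 0.05, 4 were higher and 1 lower, against 2.52% and 2.59% of all genes outside the region. Without overlap, 2 were higher (Vgll3, Wwc2) and 1 lower (Sav1), against 1.3% and 1.24%. Vgll3, a TEAD cofactor gene, read 11.83, 11.56 and 11.22 against 7.91 to 10.83, a difference of 1.81 without overlap (SE 0.60, limma adjusted p = 0.842). Wwc2, a scaffold gene of the pathway, read 10.23, 10.45 and 10.14 against 9.32 to 10.10, and Sav1, the partner of the MST kinases, read 9.91, 9.51 and 9.84 against 9.998 to 10.55. Wwtr1, which encodes the YAP paralogue TAZ, read 10.59, 10.42 and 11.40 against 10.77 to 12.21, a difference of -0.51. For the TEAD genes the differences were -0.17 (Tead1), 0.48 (Tead2), 0.23 (Tead3) and -0.35 (Tead4). Amot, an angiomotin gene, differed by 0.97 with overlap. In the list of IAP and NF-kB genes, the pathway of Birc2 and Birc3, the median was -0.04. Of its 19 genes 0 passed, again as outside the region as a whole. Traf1, which binds the cIAP proteins and is a known NF-kB target, read 7.40, 7.60 and 8.16 against 8.25 to 9.45. It was the 1 member that was lower without overlap, against 1.24% of all genes outside the region. The NF-kB inhibitor gene Nfkbia, another target, differed by -0.31.

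The other lists covered tumour cell states and cell types. That 0 members of any list passed follows from 0 of 19879 genes outside the region passing. Of 26 mitosis genes 25 had a negative difference, with a median of -0.23, and Bub1, Prc1, Mki67 and Nusap1 were lower without overlap, against 1.24% of all genes outside the region. Without TMCRP-1123 the median was -0.08, and without ACRP-1 it was -0.37. The list means overlapped, at 10.002 to 10.44 in Yap1-high and 10.20 to 10.73 in the other tumours. The E2F and replication list had a median of 0.05, with 19 positive and 16 negative. Of 24 luminal epithelial genes 23 were negative, with a median of -0.60, but the list means overlapped (8.09 to 8.85 against 8.11 to 9.45), and without TMCRP-1123 the median was -0.39. Krt8 differed by -0.98 (limma adjusted p = 0.941). Among basal genes Itgb4, an integrin of hemidesmosomes, read 7.99, 8.10 and 8.19 against 8.48 to 10.33. It was the 1 member of 19 that was lower without overlap, against the same 1.24%. Among 16 immediate early genes Jun and Ier2 were lower without overlap, against the same 1.24%, and the median of the list was -0.15. Without ACRP-1 that median was 0.04. Foxc2, a transcription factor gene of mesenchymal cells, had the largest difference of its list, -1.84, with overlap.

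Markers of other cells in the tissue bear on each bulk level, since fewer cells of a type and less RNA per cell cannot be told apart. Medians of these lists often rested on single tumours. The macrophage list had a median of 0.30 (0.07 without TMCRP-1123, 0.50 without ACRP-1), with means of 10.62 to 11.41 in Yap1-high and 10.36 to 11.19 in the other tumours. The fibroblast and matrix list had a median of 0.14 (-0.07 without MCRP-1175, 0.40 without TMCRP-1123), with means of 10.48 to 11.39 and 10.22 to 11.17, and the endothelial list one of 0.11 (0.01 without MCRP-1175, 0.27 without TMCRP-1123). The medians were -0.09 for adipocytes, -0.04 for T and NK cells, 0.04 for B and plasma cells and -0.01 for neutrophils. The rest were 0.06 (mesenchymal), 0.04 (basal), -0.06 (squamous), -0.16 (skeletal muscle), -0.04 (erythrocytes), -0.40 (milk proteins), 0.14 (interferon response), 0.26 (antigen presentation), -0.01 (hypoxia and glycolysis), 0.00 (p53 targets), -0.26 (EGF family) and 0.27 (proteases and inhibitors elsewhere). In that last list the gelatinase gene Mmp9 ran against Adamts5, at 10.03, 10.37 and 11.58 against 9.47 to 13.17. Without TMCRP-1123 the medians of milk proteins (0.08), interferon response (-0.24) and antigen presentation (-0.03) had the opposite sign. Without MCRP-1175 the median of milk proteins was -1.06 and that of proteases elsewhere 0.06. The part of other cells in the differences was not tested.

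By chromosome, 2 stood out, a comparison chosen after the values were seen. On chromosome 16, 43 of 648 genes were higher without overlap (6.64%, against 1.3% of all genes outside the region). Their median difference was 0.34, and each of 5 equal parts of the chromosome in gene order held 5.38% to 6.98%. Adamts5 and Vgll3 are among them. On chromosome 2, 93 of 1732 genes were lower without overlap (5.37% against 1.24%), with a median difference of -0.31. The 5 parts held, from the first on, 6.34%, 2.89%, 2.02%, 6.36% and 9.22%. With each tumour left out in turn, the chromosome 16 share was 7.41% to 13.7% and the chromosome 2 share 5.66% to 14.5%. The shares of all genes were then 1.57% to 4.35% and 1.46% to 4.16%. Both of the highest chromosome shares came without MCRP-1175. Genes with a mean of at least 6.37 were also taken relative to their mean in the 9 tumours. Their median on chromosome 16 was 0.024 in MCRP-1175, 0.080 in TMCRP-1123 and 0.104 in ACRP-1, and -0.106 to 0.020 in the others. On chromosome 2 it was -0.009, -0.078 and -0.140 against -0.014 to 0.079, so MCRP-1175 lay inside the range of the others. Neighbours of which at least 3 in a row did not overlap formed 7 runs. The longest was the 7 genes from Mmp7 to Cep126, Yap1 among them, and the other 6 held 3 genes each. These 6 were Rrn3 to Pdxdc1 and Med15 to Scarf2 on chromosome 16, Myo1h to Ube3b on chromosome 5, Pabpc5 to Nap1l3 on the X chromosome, and Romo1 to Phf20 and Gm14403 to Zfp931 on chromosome 2.

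**Figure D5:**
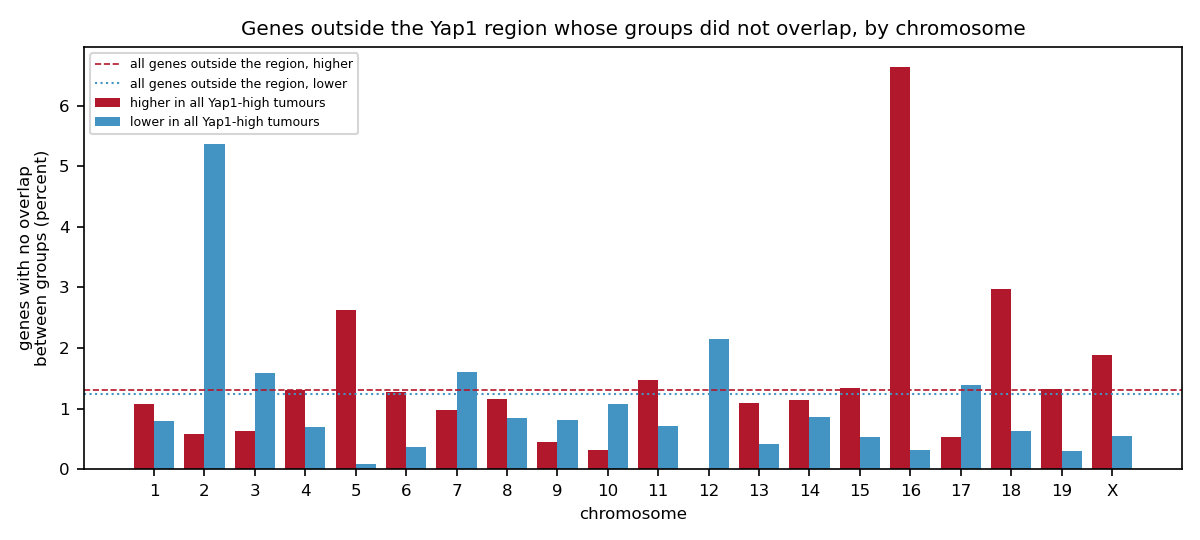
Share of the genes of each chromosome outside the Yap1 region (vertical axis, percent) that were higher (red) or lower (blue) in all 3 Yap1-high tumours than in all 6 others. Lines give the shares over all genes; chromosome 16 stands at 6.64% higher and chromosome 2 at 5.37% lower.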

How the data were processed

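RNA of 9 Rb/p53 tumours, 3 p53 tumours and 5 normal mammary samples was read on 1 array each. The authors deposited log2 values for 35556 probe sets, made by RMA in Partek 5.6 per the submitters' processing notes; for genome build and other settings, none is given in the sources used here. RMA summarises probes over a whole transcript and compresses differences near the floor and ceiling. No depth applies to arrays, and their number limits the precision.

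Genes were the symbols of probe sets that carry a single one (21789 probe sets with 1 symbol, 1621 with several, 12146 with none here). The probe set of highest mean was kept, which left 19938 genes. Gene order came from the GRCm38.p6 RefSeq table. The split was made on the Yap1 readings themselves. The tumours are described as independent, so p-values reflect the spread between tumours. The members and gene lists were chosen with earlier results of these data known.

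The 9 arrays were fitted in R 4.3.3 with limma 3.58.1 (lmFit, eBayes, two-sided), with Benjamini-Hochberg adjustment over all genes and a threshold of 0.05. The fit was checked on simulated data. Yap1 and its region are described and were not tested, although they stayed in the fit over all genes. Outside the region, up to 12 genes in each direction were named, by smallest p among those without overlap. Also named were a fixed set of genes and the members of largest difference in a list; predicted genes, olfactory genes, small RNAs and receptor segments were skipped. Genes outside this rule are named where their values were of use. Alternatives were another variance prior, array weights, a filter below the 25th percentile, other normalisations and probe set rules, a difference of at least 1, other sets of arrays, tumour model as a block, Yap1 as a number and each tumour left out.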

Additional observations from a re-analysis of the deposited data

Results flagged for a closer look

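A tumour was singled out where its gap to the nearest other tumour was a large share of the whole range of its group (Dixon's test). This was run over groups of values of genes outside the Yap1 region and of list means, 170 in all, among the 9 Rb/p53 tumours and among the 6 without high Yap1, and singled out 13. Chance alone singles out about 1 in 20.

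Igf2bp1 was high in TMCRP-1123, at 8.56 with the other 8 tumours at 6.89 to 7.74.

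Among the 6 other tumours, TMCRP-1 was high for Ccdc80 (12.55) and low for Scin (8.07). TMCRP-3 was low for Cdkn2a (8.30), a cell cycle inhibitor gene, against the other 5 and the other 8. MCRP-1241 was high for Klhl30 (7.40) and Sav1 (10.55) and low for Mmp9 (9.47).

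Of the list means, MCRP-1241 was high for B and plasma cell genes (7.25) and for erythrocyte genes (8.07, among the 6 and among the 9) and low for mesenchymal genes (10.81). TMCPR-1014 was the lowest of the 9 for E2F and replication genes (9.68).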

How the results depend on the processing

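The count of genes past the threshold takes in Yap1, which made the groups, and its region, so nothing is read from it. It moved from 7 to 14 with all 17 arrays as 4 groups, 3 with the tumour model as a block, 0 among transplanted tumours only, 17 among MMTV-Cre tumours only and 4 with all probe sets tested. With each tumour left out it ran from 0 to 13. Outside the region the count of 0 became 2 with array weights (Fads3, Pcdh11x) and 2 with Yap1 as a number (Pcdh11x, Adamts5). It became 6 with all 17 arrays (Bmp4, Pcdh11x, Klhl30, Amotl2 and Adamts5 higher, Scin lower) and 7 among MMTV-Cre tumours (Cdh3, Serpinb9b, Pcdh11x, Sh3rf2, Adamts5, Ada, Dpp6), and ran from 0 to 5 with each tumour left out. The cause of these moves was not tested. Region genes without overlap, Yap1 among them, numbered 13 to 21 with each tumour left out, 21 without ACRP-1. Such counts grow by construction when fewer tumours are compared. The median of the YAP targets was 0.37 with the model as a block. The Rb1 difference of 0.01 ran from -0.18 to 0.11 with each tumour left out and changed sign without MCRP-1241 (-0.02), TMCRP-1 (-0.04), TMCRP-3 (-0.01) or TMCRP-1123 (-0.18). Of the 24 genes named by smallest p, none changed direction. With tumours left out they could not, since only genes without overlap were chosen. Larger list medians that rest on single tumours stand in the text. Of the small ones, those of the B and plasma cell, T and NK cell, basal, E2F, erythrocyte, squamous, hypoxia, neutrophil and p53 target lists changed sign with at least 1 tumour left out. No paired analysis was possible because the groups are parts of 1 labelled group and share no replicate number. Levels near the array floor, as for Pcdh11x in the other tumours, limit what a difference shows.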
